A study of Mus musculus with 36 samples.

Results

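The small nucleolar RNAs (snoRNAs) and small Cajal body RNAs (scaRNAs) were examined here as the genes whose symbols begin with Snora, Snord or Scarna. By this rule 115 of the 24690 genes in the expression tables were members, of which 36 were Snora, 70 Snord and 9 Scarna genes. The tables came from 36 RNA-seq libraries of C57BL/6 mice, 12 each from the main olfactory epithelium (MOE), the vomeronasal organ (VNO) and the olfactory bulb (OB). All mice were weaned at 3 weeks and killed at 6 months of age, and lived 4 to a cage with their own sex (sex-separated, S) or with both sexes (sex-combined, C). Each tissue therefore had 4 groups of 3 libraries, which are abbreviated below by housing and sex as SF and SM for females and males of the sex-separated cages and as CF and CM for those of the sex-combined cages. Every library was made from the pooled RNA of several mice, so that a replicate was a pool, and the p-values below measure the spread between pools. Per the study, the 3 tissues came from the same mice, and sex-combined females and males shared cages. The main fits nevertheless treated all libraries as independent. The tissues carried their own markers. Summed FPKM of 5 markers of olfactory sensory neurons was 1290 to 2378 in MOE and at most 158 elsewhere, that of 4 markers of vomeronasal sensory neurons was 52 to 70.1 in VNO and at most 14.2 elsewhere, and that of 6 markers of bulb neurons was 252 to 331 in OB and at most 8.23 elsewhere.

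Small nucleolar RNAs guide enzymes to single nucleotides of other RNAs. The C/D box RNAs (Snord) are bound by fibrillarin and direct the methylation of ribose, whereas the H/ACA box RNAs (Snora) are bound by dyskerin and direct the conversion of uridine to pseudouridine, both mainly in ribosomal RNA. The scaRNAs carry the same kinds of boxes but reside in Cajal bodies, where they guide the modification of spliceosomal RNAs. In mammals most of these RNAs are cut out of the introns of host genes, many of which encode ribosomal proteins or are noncoding transcripts named small nucleolar RNA host genes (Snhg).

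The boxes that define the families can be read in the sequences. The sequences below are those of the GENCODE M21 transcripts, matched by symbol for 112 of the 115 members, and were chosen because the results on tissues, groups and fragment numbers turn on them. For the C/D box RNAs, capitals mark the C box letters TGATGA within the first 25 bases and the D box letters CTGA within the last 15 bases.
Snord17: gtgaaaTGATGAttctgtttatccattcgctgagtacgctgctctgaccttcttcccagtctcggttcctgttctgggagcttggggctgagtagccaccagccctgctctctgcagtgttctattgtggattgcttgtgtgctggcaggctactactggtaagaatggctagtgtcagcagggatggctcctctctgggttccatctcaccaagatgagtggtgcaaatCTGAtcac
Snord15b: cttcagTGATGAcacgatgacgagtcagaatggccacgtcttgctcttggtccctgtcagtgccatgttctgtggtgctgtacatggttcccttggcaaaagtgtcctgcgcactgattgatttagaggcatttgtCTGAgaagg
Snord15a: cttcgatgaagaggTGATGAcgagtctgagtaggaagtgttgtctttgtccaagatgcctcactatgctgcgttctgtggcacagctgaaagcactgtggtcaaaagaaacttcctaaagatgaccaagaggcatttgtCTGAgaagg
Snord104: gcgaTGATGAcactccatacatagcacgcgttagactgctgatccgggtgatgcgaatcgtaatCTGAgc
Snord49b: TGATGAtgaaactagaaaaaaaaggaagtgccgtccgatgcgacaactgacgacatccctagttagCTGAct
On the strand of the RNA, TGATGA was found in this window in 43 and CTGA in 62 of the 69 Snord sequences, against 1 and 22 of 1383 other transcripts annotated as small nuclear RNAs (62.3% and 89.9% against 0.0723% and 1.59%). In the H/ACA box RNAs below, capitals mark the letters ACA within the last 8 bases.
Snora23: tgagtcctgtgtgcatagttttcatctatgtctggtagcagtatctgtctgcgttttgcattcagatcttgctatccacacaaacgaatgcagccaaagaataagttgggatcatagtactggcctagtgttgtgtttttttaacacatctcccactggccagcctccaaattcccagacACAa
Snora7a: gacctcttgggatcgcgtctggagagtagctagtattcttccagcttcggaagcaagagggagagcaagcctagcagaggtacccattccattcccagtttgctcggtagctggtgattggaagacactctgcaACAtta
Snora34: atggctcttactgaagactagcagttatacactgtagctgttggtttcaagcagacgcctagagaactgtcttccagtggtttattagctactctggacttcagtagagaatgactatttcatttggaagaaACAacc
Snora26: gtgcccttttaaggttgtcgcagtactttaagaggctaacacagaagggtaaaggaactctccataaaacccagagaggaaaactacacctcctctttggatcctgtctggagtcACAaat
Snora78: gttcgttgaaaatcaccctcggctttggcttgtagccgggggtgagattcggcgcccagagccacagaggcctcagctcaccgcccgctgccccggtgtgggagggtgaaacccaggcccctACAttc
Snora52: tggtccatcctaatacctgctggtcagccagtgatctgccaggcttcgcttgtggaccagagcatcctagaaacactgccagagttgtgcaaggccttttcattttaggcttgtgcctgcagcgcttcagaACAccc
Snora64: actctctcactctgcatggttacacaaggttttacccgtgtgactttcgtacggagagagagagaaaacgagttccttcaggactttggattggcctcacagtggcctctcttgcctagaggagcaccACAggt
These letters were present in 32 of the 34 Snora sequences (94.1%) and in 5.42% of the other small nuclear RNA transcripts. The scaRNAs with the most fragments differed in their boxes, since Scarna13 ended in an ACA box and Scarna6 carried both C and D boxes.
Scarna13: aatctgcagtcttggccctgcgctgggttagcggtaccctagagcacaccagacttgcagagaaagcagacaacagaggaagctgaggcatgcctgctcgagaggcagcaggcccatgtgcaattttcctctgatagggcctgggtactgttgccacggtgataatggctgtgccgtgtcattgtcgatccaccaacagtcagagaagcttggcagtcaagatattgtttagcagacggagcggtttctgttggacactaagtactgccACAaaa
Scarna6: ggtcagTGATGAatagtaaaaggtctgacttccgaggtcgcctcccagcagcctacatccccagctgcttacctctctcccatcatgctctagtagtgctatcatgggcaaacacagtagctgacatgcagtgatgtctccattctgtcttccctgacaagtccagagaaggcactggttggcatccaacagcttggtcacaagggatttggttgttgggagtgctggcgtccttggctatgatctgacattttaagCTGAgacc

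The members varied over a wide range in the amount of data behind them. The deposited unit was FPKM, that is, fragments per kilobase of transcript and 1000000 mapped fragments. How many fragments stood behind each value was worked out from its deposited 95% confidence limits, which narrow as fragments accumulate. The estimates summed to between 3006004 and 6429907 fragments per library over all genes, of which members held, per 1000000, between 993 and 1735 in MOE, between 941 and 1592 in VNO and between 1451 and 2239 in OB. These sums lay below the numbers of aligned read pairs listed by the study and do not stand for sequencing depth. Only 28 members had a mean of at least 10 estimated fragments over the 36 libraries, and these 28 held 98.3% of all member fragments. Snora74a and Snord17 alone held 48.9%, and the 6 members with the most fragments (with Snord15b, Scarna13, Snord22 and Scarna6) held 80.6%. A further 28 members were listed at 0 in every library, among them Snord64 and both listed Snord116 genes (Snord116l1 and Snord116l2), which lie in an imprinted region on chromosome 7 known for its expression in neurons. Snhg14, the noncoding transcript that covers them, was also listed at 0 in all MOE and VNO libraries and had 6.14 ± 0.846 FPKM (SD, n = 12) in OB. A count of 0 allows up to 3 fragments, so that such a listing did not show an RNA to be absent.

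Fragment numbers rose with the length of the RNA. In the files, members were between 42 and 273 bases long, with medians of 119.5 bases for Snora and 68 bases for Snord. None of the 45 members shorter than 70 bases had a mean of 10 fragments, and 21 of them were at 0 throughout. Of the 28 members of 70 to 99 bases, 4 reached a mean of 10 fragments, as did 12 of the 27 members of 100 to 129 bases and 12 of the 15 members of at least 130 bases. Among the longest, Snora24, a 130-base H/ACA RNA within Snhg8, was listed at 0 in all 36 libraries. The listed lengths were not always those of the whole RNA. In 60 of the 112 matched members the listed length was under 90% of that in GENCODE, and it was 61 of 414 bases for Scarna2 and 71 of 325 bases for Scarna10.

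**Figure D1:**
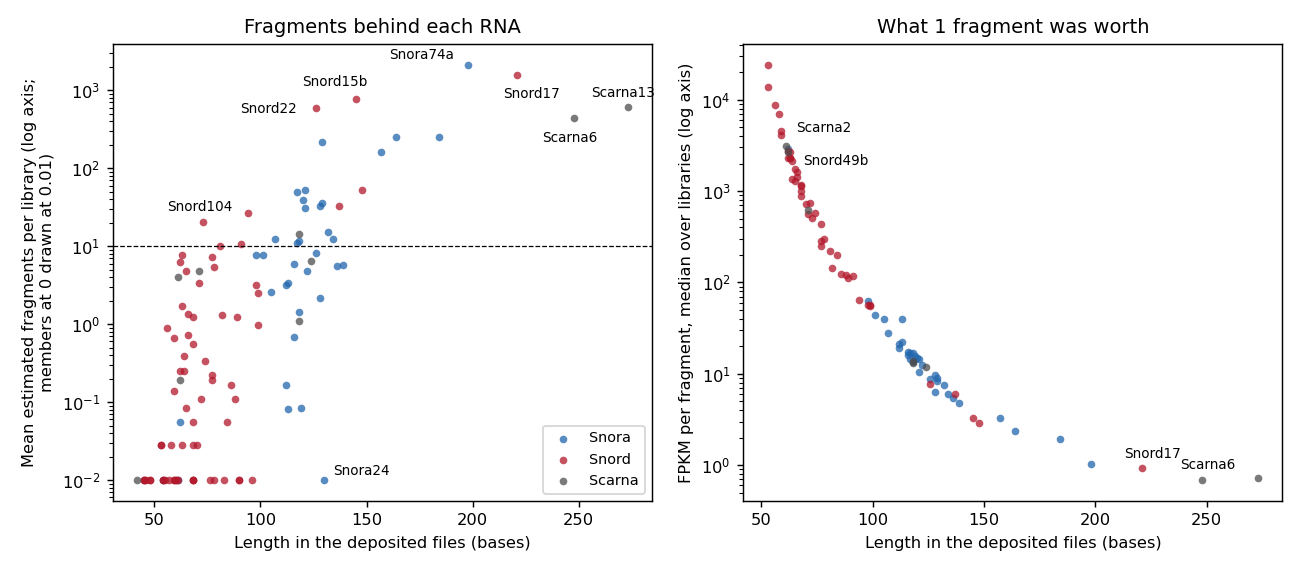
Each point is 1 of the 115 members, coloured by family, with its length in bases on the horizontal axes. The left panel shows the mean estimated fragments per library on a log axis, with the dashed line at 10 fragments and members listed at 0 drawn at 0.01, and the right panel shows the median FPKM of 1 fragment for members above 0; fragments rose and the FPKM of 1 fragment fell with length.

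The worth of 1 fragment in FPKM fell with the same length, and by far more than in proportion to it. One fragment of Snord49b, 63 bases long in the files, stood for a median of 2319.7 FPKM, and 1 fragment of Snord17, 221 bases long, for 0.922 FPKM. As a result, the order of members by FPKM and by fragments differed. Snord49b, Snord49a, Scarna2, Snord104, Snord47 and Snord99 together made up 58.1% of all member FPKM from 0.581% of the member fragments. The 28 members with 10 or more fragments made up 27.7% of member FPKM. Levels are therefore compared below for 1 RNA at a time across libraries, and the 87 members with fewer fragments are counted apart. This did not remove the effect in full, since the worth of 1 fragment also varied between libraries. In short relative to long genes it ranged from -0.36 to 0.22 on the log2 scale, centred for each gene within its tissue.

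The first comparison was between the tissues. It was made with limma on log2(FPKM + 0.5), adjusted over all 14627 genes tested with the Benjamini-Hochberg method and called at an adjusted p under 0.05. Of the 115 members, 87 passed the filter of a mean FPKM of 0.5. Between MOE and VNO, 27 of these 87 were called, 26 higher in MOE and 1 lower, while 82.6% of all genes were called (48.6% higher and 34% lower). Between MOE and OB, 27 were called (14 higher and 13 lower in MOE), against 85.1% of all genes (45.7% higher and 39.3% lower). Between VNO and OB, 32 were called (6 higher and 26 lower in VNO), against 85.8% of all genes (37.8% higher and 48% lower). The share of members called was thus below that of all genes in each comparison. Under quantile normalization the split became 12 higher and 9 lower for MOE against VNO, and 10 higher and 28 lower for MOE against OB. The median log2 change of the 87 members was 0.65, 0.17 and -0.51 in the comparisons MOE against VNO, MOE against OB and VNO against OB, and that of all genes tested was 0.15, 0.07 and -0.12. Under quantile normalization the members' medians for MOE against VNO and MOE against OB were 0.0945 and -0.23, and that of the 28 members with 10 or more fragments for MOE against VNO was -0.26. Under upper quartile scaling the median for VNO against OB was -0.24, with 0.15 for all genes. Among the 28 members with 10 or more fragments, 17, 16 and 20 were called. The tissues differ in their cells, and in such bulk samples more cells of a type and more of an RNA per cell cannot be told apart. The RNA integrity numbers listed by the study also differed between the tissues without overlap, lowest in VNO and highest in OB. Tissue and RNA integrity therefore cannot be told apart here, and the part of integrity was not tested. The deposited values also covered 40150 transcript entries per library in MOE and 40008 in VNO and OB. This difference in processing cannot be told apart from MOE as a tissue, and its part was not tested.

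Several RNAs were highest in the olfactory bulb. Snora74a, an H/ACA RNA within Snhg4, ranged over 837 to 1503 FPKM in the 12 MOE libraries (median 1139), 1346 to 2064 in VNO (median 1834) and 2894 to 4130.3 in OB (median 3788). All OB libraries lay above all libraries of the other tissues, whereas MOE and VNO overlapped. Its log2 change was -1.62 (SE 0.0996, adjusted p = 1.93e-15 from limma) between MOE and OB and -0.59 (SE 0.0996, adjusted p = 3.97e-06) between MOE and VNO, the only member called lower in MOE than in VNO.

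Scarna6 had 146 to 289.8 FPKM in MOE (median 211), 165 to 289 in VNO (median 247) and 371 to 573 in OB (median 455), so that OB was again separate from both other tissues. It lies at chr1:89681146-89681393 of mm9 within Atg16l1, an autophagy gene. The log2 change was -1.05 between MOE and OB (SE 0.0961, adjusted p = 2.17e-11 from limma) and -0.91 between VNO and OB. Scarna13, within Snhg10, was at 254 to 525 FPKM in MOE (median 418), 257 to 376 in VNO (median 307) and 459 to 649 in OB (median 557). Its OB libraries lay above all VNO libraries and overlapped those of MOE. Its log2 change was -0.86 between VNO and OB and 0.43 between MOE and VNO, but the latter turned to -0.41 under quantile normalization.

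Among the H/ACA RNAs with fewer fragments, Snora26 and Snora34 also had their highest median in OB. Snora26, at chr5:74489555-74489675 within the noncoding gene Dancr, had median FPKM values of 526 (MOE), 543 (VNO) and 1113 (OB), with log2 changes of -1.02 (adjusted p = 1.89e-06 from limma) and -1.05 for MOE and VNO against OB. Snora34, within Kansl2, had medians of 151, 88.8 and 303 FPKM and a log2 change of -1.65 between VNO and OB (SE 0.203, adjusted p = 1.18e-08 from limma), with 2.13 to 37.1 fragments per library. For both RNAs the libraries of the tissues overlapped. Snora21, within the ribosomal protein gene Rpl23, was also called lower in MOE (log2 -0.67) and in VNO (log2 -0.98) than in OB.

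Other H/ACA RNAs were lowest in the vomeronasal organ. Snora23 lies at chr7:117189878-117190061 within Ipo7, which encodes an import receptor for ribosomal proteins. It had 534 to 941 FPKM in MOE (median 712), 159 to 369.7 in VNO (median 249) and 312 to 689 in OB (median 476). The MOE libraries were all above the VNO libraries, while OB lay between and overlapped both. The log2 change between MOE and VNO was 1.57 (SE 0.120, adjusted p = 6.79e-13 from limma), a 2.94-fold difference of the means. Between MOE and OB it was 0.54 (adjusted p = 0.000167 from limma), and -0.49 under quantile normalization.

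Snora7a, at chr6:115757993-115758121 within the ribosomal protein gene Rpl32, had 1687 to 2814 FPKM in MOE (median 2346), 990.1 to 1356 in VNO (median 1144) and 1635 to 2622 in OB (median 2098). The VNO libraries were below all others. The log2 change was 1.03 between MOE and VNO (SE 0.0974, adjusted p = 7.78e-11 from limma) and -0.86 between VNO and OB (adjusted p = 2.36e-09). Between MOE and OB it was 0.17 and not called (adjusted p = 0.104 from limma). That change was called in opposite directions by scaling, at -0.41 under quantile normalization and at 0.28 under upper quartile scaling. Snora30, within the chromatin remodeler Srcap, and Snora28, within the translation factor Eif5, were likewise lower in VNO than in MOE and OB. Their log2 changes were 1.47 and 0.84 between MOE and VNO and -1.44 and -0.81 between VNO and OB. For Snora28 the change between MOE and VNO was 0.04 under quantile normalization (adjusted p = 0.759 from limma). Snora81, within Eif4a2, and Snora3, within Rpl27a, were higher in MOE than in VNO by 1.01 and 0.76 on the log2 scale, and these became 0.12 and -0.12 under quantile normalization. Snora81 was not called between VNO and OB (log2 -0.29, adjusted p = 0.0621 from limma), although it was under quantile normalization (log2 -0.35, adjusted p = 0.0131).

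A smaller number of RNAs were lowest in the olfactory bulb. Snord104, a C/D RNA of 73 bases at chr11:106362305-106362377, had 11078 to 20079 FPKM in MOE (median 14814), 5052 to 20509 in VNO (median 8754) and 3531 to 10886 in OB (median 6220.1), from 8 to 45.8 fragments per library. The MOE libraries lay above all OB libraries, and VNO overlapped both. The log2 change was 1.30 between MOE and OB (SE 0.197, adjusted p = 5.70e-07 from limma). When no filter on FPKM was applied the same change had an adjusted p of 0.397, the highest among the alternatives tried. Snord104 was also called higher in VNO than in OB. That call was lost with no filter (log2 0.55, adjusted p = 0.802 from limma) and under quantile normalization (log2 0.13, adjusted p = 0.588 from limma). Snora17, within Snhg7, was higher in MOE than in OB by 1.27 on the log2 scale (adjusted p = 4.41e-06 from limma), with 1.99 to 33.4 fragments.

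The pair Snord15a and Snord15b, C/D RNAs that lie 3077 bases apart within the ribosomal protein gene Rps3, did not have the same order of tissues. Snord15a had median FPKM values of 193 (MOE), 150.3 (VNO) and 100.3 (OB), and was higher in VNO than in OB by 0.65 on the log2 scale (SE 0.119, adjusted p = 1.14e-05 from limma). Snord15b had medians of 3062, 1909 and 2386 FPKM, and between VNO and OB it had a log2 change of -0.26 (adjusted p = 0.0818 from limma). The difference between these changes was not tested. Between MOE and OB, Snord15b was called higher by 0.39, which turned to -0.25 under quantile normalization.

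The C/D RNAs Snord17 and Snord22 were not called between any tissues. Snord17, at chr2:144091718-144091938 within the sorting nexin gene Snx5, had median FPKM values of 1571 (MOE), 1421 (VNO) and 1573 (OB), and log2 changes between -0.14 and 0.0749 (SE 0.124). Snord22, within Snhg1, had medians of 4881, 4407 and 4772 FPKM. Its adjusted p-values were 0.851, 0.497 and 0.634 from limma in the order above. Under quantile normalization Snord17 was called lower in MOE (log2 -0.75) and in VNO (log2 -0.43) than in OB. It was then also called lower in MOE than in VNO (log2 -0.32). Under upper quartile scaling Snord17 was called in the other direction, higher in VNO than in OB (log2 0.24, adjusted p = 0.0219 from limma). Snord22 was called lower in MOE than in OB under quantile normalization (log2 -0.58).

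**Figure D2:**
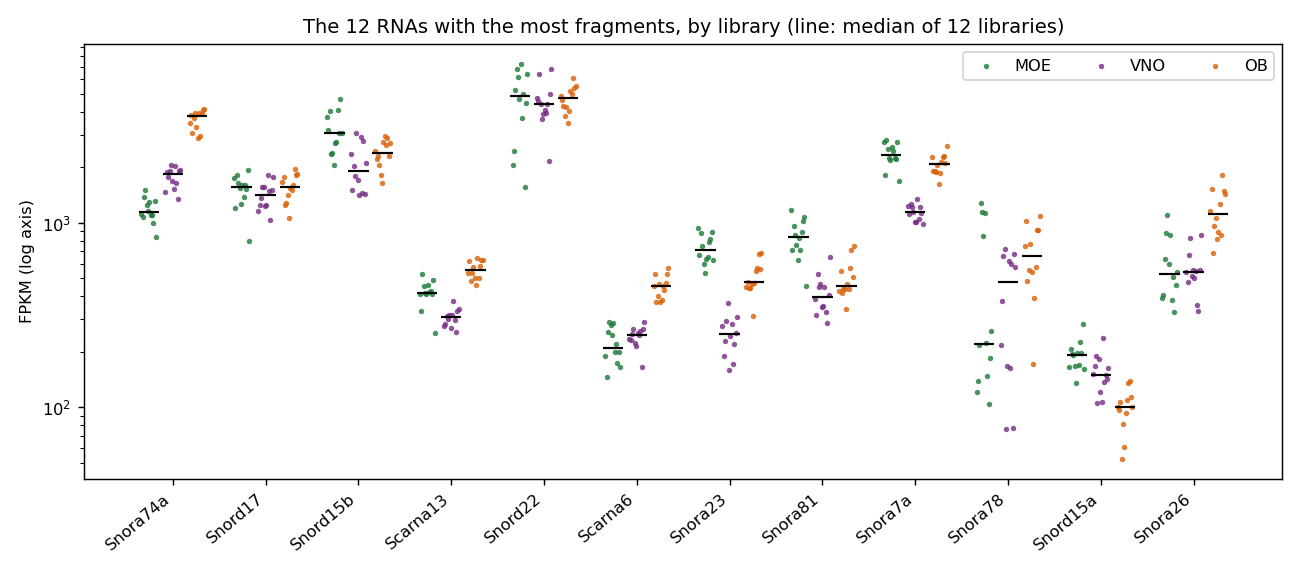
FPKM on a log axis for the 12 members with the most fragments, with 1 point per library, 12 libraries per tissue, and the median as a line. Snora74a and Scarna6 in OB lie above all libraries of MOE and VNO, Snora7a in VNO lies below all others, and Snora78 spreads over a wide range within each tissue.

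**Figure D3:**
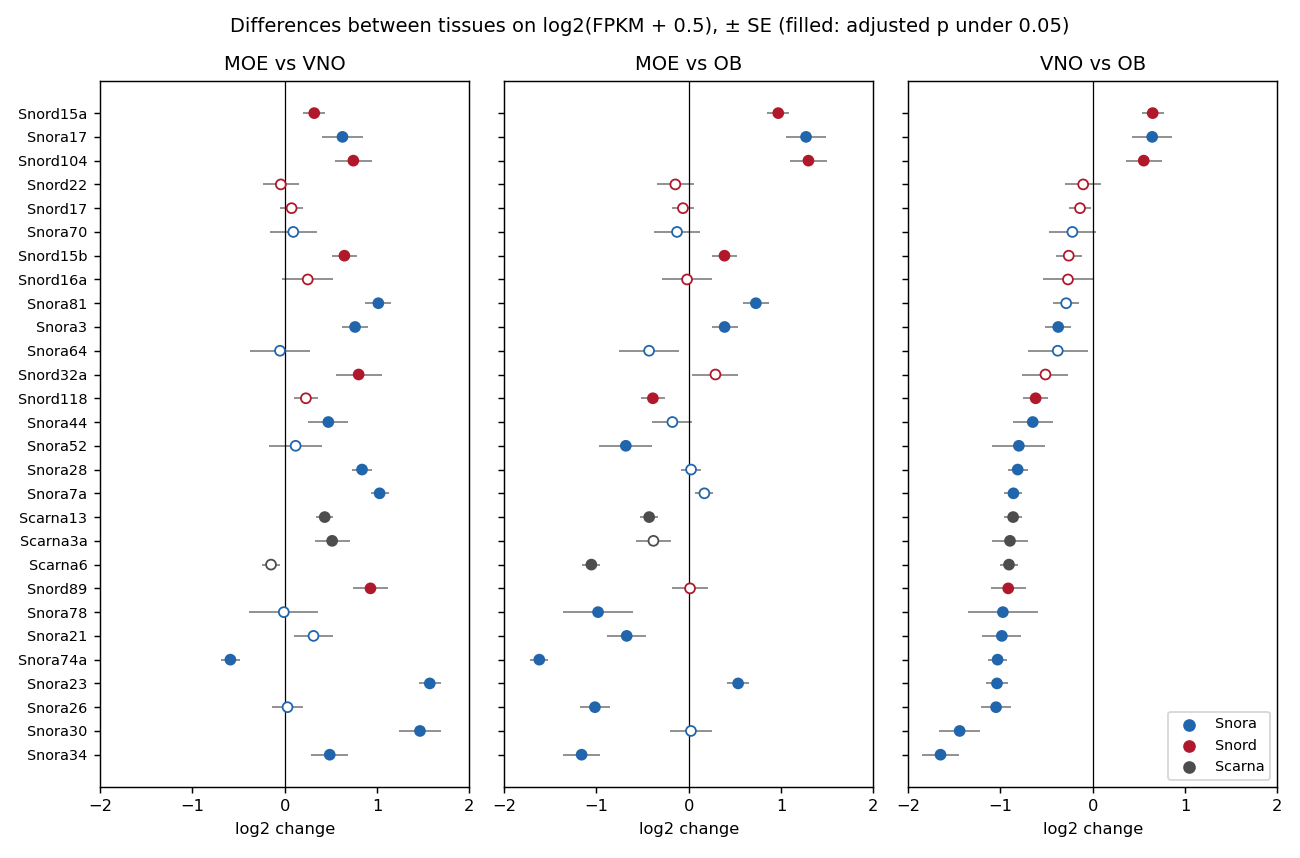
Log2 change with its standard error for the 28 members with 10 or more fragments in the 3 comparisons of tissues, ordered by the change between VNO and OB; filled points had an adjusted p under 0.05. In the right panel 17 members are called lower and 3 (Snord15a, Snora17, Snord104) higher in VNO than in OB.

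Of the 59 tested members with a mean under 10 fragments, 10, 11 and 12 were called in the comparisons of MOE with VNO, MOE with OB and VNO with OB. They are named here after their values were seen. Snora5c, within Tbrg4, had 596 FPKM on average in OB against 162 in VNO (log2 -2.10, adjusted p = 8.44e-08 from limma), with no overlap of the libraries. Scarna10, which overlaps Ncapd2, also did not overlap between VNO and OB (means 1081 and 6443 FPKM). They rested on means of 8.66 and 5.39 fragments per library in these tissues.

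The host genes were set beside their snoRNAs. For 25 of the 28 members with 10 or more fragments, a single gene covered the locus, and how reads shared by the snoRNA and its host were divided is not given in the sources used here. Both were called in 14 of the 25 pairs between MOE and VNO, with the same direction in 11. Between MOE and OB both were called in 12 pairs, 9 of them in the same direction, and between VNO and OB in 14 pairs, 10 of them in the same direction. Members and host genes leaned the same way as sets. Between MOE and VNO, 16 of the 17 called members with 10 or more fragments and 23 of the 32 called genes of the host list were higher in MOE. Between VNO and OB, 17 of 20 and 26 of 32 were lower in VNO. Whether pairs shared a direction more often than these leanings alone would give was not tested. Snora74a and Snhg4 had log2 changes of -1.62 and -1.26 between MOE and OB, Scarna6 and Atg16l1 of -1.05 and -0.79, and Snora26 and Dancr of -1.02 and -1.19. By contrast, Snora30 was higher in MOE than in VNO by 1.47 whereas Srcap had a change of -0.59. Snora7a was lower in VNO than in OB (-0.86) whereas Rpl32 was higher (0.28).

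Genes for the proteins that bind these RNAs were counted by lists. Of 6 genes of the H/ACA particle, 5 were called between MOE and VNO, all higher in MOE, among them Dkc1 (dyskerin; log2 0.46) and Nop10 (log2 0.65), and 4 were called between VNO and OB, 3 of them lower in VNO. Of 11 genes of the C/D particle and its assembly, 8 were called between MOE and VNO (7 higher in MOE), with Nop56 at 1.07 and Nop58 at 0.71, and 9 between VNO and OB (8 lower in VNO). Fibrillarin (Fbl) was called only between VNO and OB among the tissue comparisons (log2 -0.30, adjusted p = 0.0206 from limma). Its mean FPKM was low, at 0.58 (MOE), 0.44 (VNO) and 0.65 (OB), close to the filter of 0.5. Of 6 genes of Cajal bodies and nucleolar shuttling, 5 were called between MOE and OB, 4 of them lower in MOE. These 4 included Coil, the marker protein of Cajal bodies, at -1.002 on the log2 scale. The median log2 changes between MOE and VNO were 0.42, 0.49 and 0.21 for the 3 lists. These shares stand beside the same 82.6%, 85.1% and 85.8% of all genes.

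The second set of comparisons addressed sex and housing within each tissue. Females were compared with males under each housing, the female-male difference was compared between the housings (interaction), and sex-separated were compared with sex-combined mice. The filter left 83 members to test in MOE, 76 in VNO and 78 in OB, and 0 of them were called by limma in any of these 12 comparisons. Few genes were called at all. In MOE these were 0.102% of all genes between SF and SM libraries, 0.0436% for CF against CM, 0.0363% for the interaction and 0.102% between the housings. In VNO they were 0.0722%, 0.0433%, 0% and 0% in the same order, and in OB 0.0391%, 0.0469%, 0.00782% and 0.00782%.

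At an unadjusted p under 0.05, the members were unevenly spread over the comparisons. In MOE, 21 of the 83 members had such a p between SF and SM (25.3%, against 4.16% of all genes), 18 of them lower in females. For the MOE interaction 26 members had one (31.3% against 4.59%), 24 of them with a negative value, while 8 had one between CF and CM (9.64% against 1.75%) and 10 between the housings (12% against 3.31%). Of the members with 10 or more fragments, 1 was among these 8 and none was among these 10. In OB, 19 of 78 members had such a p for the interaction (24.4% against 4.13%), 18 of them with a positive value. Further in OB, 15 had one between the housings (19.2% against 2.27%), 13 between CF and CM (16.7% against 5.69%) and 10 between SF and SM (12.8% against 4.59%). In VNO, 4 of 76 members had such a p between SF and SM (against 8.8% of all genes), 3 between CF and CM (against 3.94%), 3 for the interaction (against 5.26%) and 4 between the housings (against 7.57%). Members of 1 library share its preparation, so that these counts do not stand for independent events. These shares depended on how the libraries were scaled. Between SF and SM in MOE the share of members and of all genes was 21.7% and 14.9% under quantile normalization, 19.3% and 15.5% under upper quartile scaling, 26.5% and 19.2% on scaled fragments, and 24.4% and 11.4% without the third CM library. For the MOE interaction these shares were 28.9% and 11.7%, 26.5% and 11.3%, 24.1% and 13.8%, and 34.1% and 15.1%. Between CF and CM in OB, quantile normalization gave 10.3% of members and 12.9% of all genes, so that the excess of members was lost, and upper quartile scaling gave 15.4% and 11.9%. Quantile normalization gave 14.1% and 10% for the OB interaction, 12.8% and 4.71% between the OB housings, and 8.97% and 5.45% between SF and SM in OB. With no filter on FPKM, which kept all 115 members, the shares were 2.61% and 2.51% between CF and CM in MOE. They were 0.87% and 3.34% between the MOE housings and 3.48% and 4.37% between SF and SM in OB. In the other MOE and OB comparisons the share of members stayed above that of all genes, in some by little. In MOE the shares were 10.4% and 4.08% between SF and SM and 11.3% and 4.19% for the interaction. In OB they were 6.96% and 3.69% for the interaction and 6.09% and 4.56% between CF and CM (7 members). Between the OB housings they were 4.35% and 2.62% (5 members). On scaled fragments the shares between CF and CM in MOE were 0% and 2.99%. Leaving out single libraries gave 18 to 29 members between SF and SM and 20 to 32 for the interaction in MOE. In OB, the counts fell to 8 between CF and CM and to 12 for the interaction without the first CF library, which was the lowest OB library for 12 of the 28 members with 10 or more fragments, and to 6 between SF and SM without the first SF library. The OB count between the housings rose to 24 without the second SM library. In VNO the counts ranged from 1 to 9 when single libraries were left out.

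Among the members with 10 or more fragments in MOE, the smallest p between SF and SM and for the interaction was that of Snora78, an H/ACA RNA at chr17:24856621-24856777 within Snhg9. It had 121, 139 and 217 FPKM in the SF libraries, 1288, 1145 and 849 in SM, 1132, 224 and 147 in CF. In CM it had 104, 184 and 259 FPKM. The SM libraries and the first CF library were thus high and the other 8 low, with no value between 259 and 849. Means were 159 ± 50.9 (SD, n = 3) in SF and 1094 ± 224 in SM libraries, from 32.7 to 56.1 and from 289 to 379.6 fragments. The log2 change between SF and SM was -2.80 (SE 0.541, unadjusted p = 7.80e-05, adjusted p = 0.0690 from limma), and the interaction with housing was -3.77 (SE 0.765, adjusted p = 0.182 from limma). When only genes with a mean of at least 10 estimated fragments were tested, these adjusted p-values were 0.00148 and 0.00709 from limma. Without the first CF library the adjusted p between SF and SM was 0.000383 and with no filter on FPKM it was 0.986, the lowest and the highest among the alternatives. The mean insert sizes listed by the study were shorter in the SM libraries and the first CF library than in most other MOE libraries, and shortest in the third CM library. A measure of fragment length from the deposited values, the log2 FPKM worth of 1 fragment in short relative to long genes, overlapped between them (-0.24 to 0.00982 in those 4 libraries and -0.16 to 0.22 in the other 8). With that measure as a covariate, the log2 change of Snora78 between SF and SM was -2.74 (adjusted p = 0.278 from limma). The part of insert size in the difference was otherwise not tested.

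Other members followed the same libraries. Snora44, within Snhg12, had 387, 393 and 518 FPKM in SF and 1378, 1144 and 1283 in SM (log2 -1.56, SE 0.324, adjusted p = 0.129 from limma), and its adjusted p was 0.0204 under the filter of 10 fragments and 0.0468 on estimated fragments scaled to the library. Snora52, within the ribosomal protein gene Rplp2, had 32.5, 17.7 and 54.8 FPKM in SF and 116, 105 and 113.5 in SM (log2 -1.80, adjusted p = 0.701), from 3.00 to 23.7 fragments. For both, the SM libraries and the first CF library were again above the other 8. This held for 5 of 83 members and for 1.01% of all genes tested in MOE. Snora78 is itself among the 5, and meets the split by construction because its own values defined it. Snora64, a further H/ACA RNA 956 bases from Snora78 within Rps2, had 49.8, 75.5 and 167 FPKM in SF and 334, 342 and 126 in SM (log2 -1.50, adjusted p = 1 from limma). In contrast, Snora74a, Snora7a, Scarna13 and Snora23 varied by at most 2.07 times over all 12 MOE libraries, while Snora78 varied by 12.3 times and Snora52 by 10.5 times.

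Snhg9, the host of Snora78, had 2.21 to 6.56 FPKM in SF and 6.44 to 14.2 in SM libraries, which overlapped. Rplp2 (5.93 to 9.39 and 7.63 to 9.55) and Rps2 (23.3 to 34.2 and 24.4 to 31.1) also overlapped between these groups. Of the markers of bulb neurons, all 6 were listed, with a summed FPKM of 4.09 to 6.59 in SF, 5.90 to 7.69 in SM, 5.86 to 8.23 in CF and 4.74 to 6.36 in CM libraries, against 252 to 331 in OB. Among them Gad1, an enzyme of inhibitory neurons, had 0.0697 to 0.132 FPKM in SF and 0.278 to 0.447 in SM libraries, and 155 to 208 in OB. In the CF libraries Gad1 had 0.0768 to 0.641 FPKM, the first CF library being the highest, and in CM it had 0.0649 to 0.200 FPKM. Gad1 is named because it was the 1 marker of the 6 without overlap between SF and SM, which was seen in its values. All 3 markers of plasma and B cells were listed and summed to 1.55 to 4.70 in SF, 4.36 to 11.3 in SM, 5.24 to 8.78 in CF and 4.04 to 7.22 in CM libraries. Their part in the differences of the snoRNAs was not tested.

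**Figure D4:**
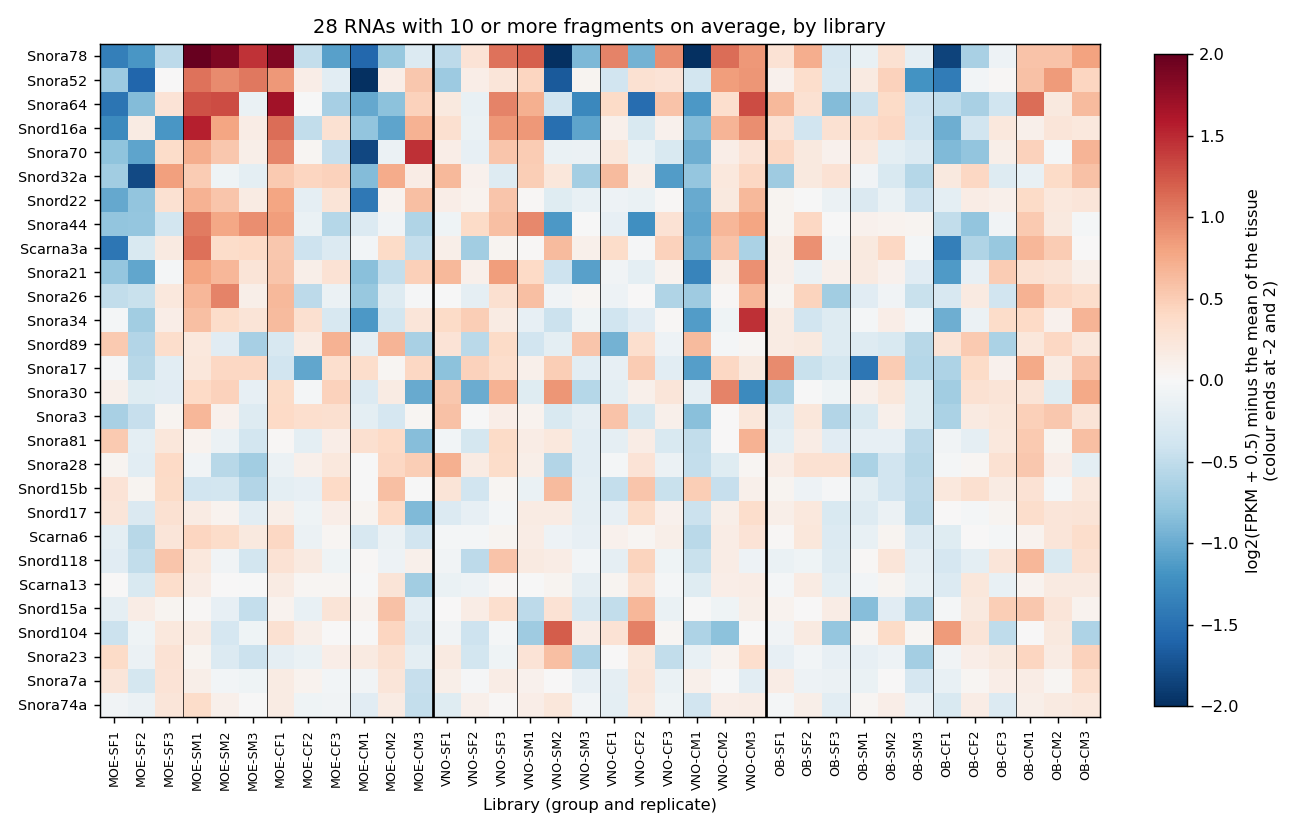
Log2(FPKM + 0.5) of the 28 members with 10 or more fragments, minus the mean of the member over the 12 libraries of the tissue, in each of the 36 libraries (thin lines separate groups, thick lines tissues). The rows at the top, such as Snora78, vary most and those at the bottom, such as Snora74a, least.

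In the other tissues Snora78 also spread between libraries, but along other groups. In VNO it had 218, 379 and 664 FPKM in SF, 718, 76.2 and 168 in SM, 623, 163 and 596 in CF. The CM libraries had 76.8, 682 and 576 FPKM, and the 4 lowest libraries came from SM, CF and CM. These 4 were also the 4 lowest for Snora21, Snora3, Snora64, Snord16a and Snord22. With Snora78, whose own values defined the 4 libraries, this makes 6 of 76 members, against 0.159% of all genes tested in VNO. The insert sizes listed by the study were longer in these 4 libraries than in most other VNO libraries. The measure of fragment length was 0.0780 to 0.22 in them and -0.36 to 0.19 in the others. Its part in their low values was not tested. In OB, Snora78 had 753, 1022 and 487 FPKM in SF, 554, 766 and 544 in SM, 171, 392 and 574 in CF. The CM libraries had 915, 919.5 and 1084 FPKM. All CM libraries were above all CF libraries (log2 change between CF and CM -1.52, SE 0.362, adjusted p = 0.545 from limma), the direction opposite to that of the CF and CM means in MOE (501 ± 548 and 182 ± 77.2, SD, n = 3), where single libraries decided the mean.

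In the other comparisons the members with the smallest p among those with 10 or more fragments were not called. In OB these were Scarna3a between CF and CM (log2 -1.30, SE 0.263, adjusted p = 0.327 from limma) and for the interaction (log2 1.43, adjusted p = 0.999), Snora28 between SF and SM (log2 0.78, adjusted p = 0.506), and Snord15a between the housings (log2 -0.50, adjusted p = 0.99999). In VNO they were Snora28 between SF and SM (log2 0.64, adjusted p = 0.469), Snord104 between CF and CM (log2 0.92, adjusted p = 1), Scarna3a for the interaction (log2 -1.04, adjusted p = 0.895) and Snora52 between the housings (log2 -0.51, adjusted p = 0.747). In MOE, Snora17 had the smallest such p between CF and CM (log2 -0.63, adjusted p = 1) and Snora78 between the housings (log2 0.77, adjusted p = 0.791). Of the members with fewer fragments, Snord69, Snord96a, Snora68, Snord55, Snord23 and Snord87 had a smaller p than these in 9 of the 10 comparisons, and none of them was called. None of the genes on the 3 protein lists was called in these comparisons either.

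**Figure D5:**
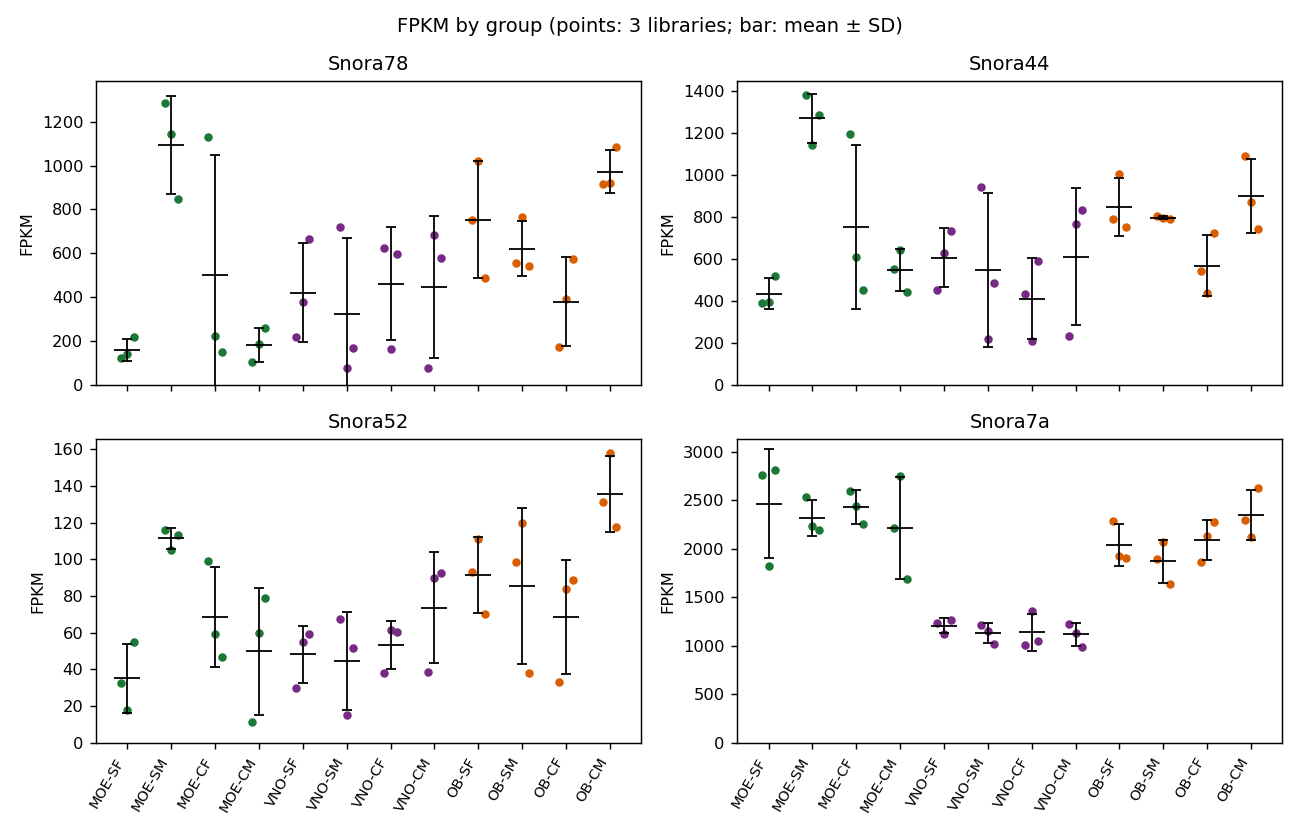
FPKM of Snora78, Snora44, Snora52 and Snora7a in the 12 groups, with 1 point per library and the mean ± SD of 3 libraries (bars that would reach below 0 stop there). MOE-SM libraries of the first 3 RNAs lie above all MOE-SF and MOE-CM libraries, while Snora7a separates VNO from MOE and OB and shows no such groups.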

How the data were processed

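RNA was measured in 36 libraries (TruSeq Stranded Total RNA after depletion of ribosomal RNA, paired ends of 50 bases, 2 lanes). Per the labels, the authors aligned reads with TopHat2 2.1.0 and computed FPKM with Cufflinks 2.2.1.0 against mm9. The deposited FPKM values and their 95% confidence limits, per transcript locus, are the unit used. Whether counting used the strand is not given in the sources used here, so reads of a small RNA and an overlapping gene on either strand could not be told apart.

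Loci were assigned to symbols by accession (at least 99.7% of entries per library) and FPKM was summed by gene. Genes with an entry not marked OK in a tissue were left out of that tissue, none of them a member. Fragments were estimated by squaring FPKM over its standard error. No floor was applied to these estimates, and they cover counting error only. The groups come from the sample titles. All 36 libraries carried Xist and Ddx3y levels of their labelled sex.

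Tests were made with limma 3.58.1 in R 4.3.3 (lmFit, eBayes with a trend) on log2(FPKM + 0.5) with genes below a mean FPKM of 0.5 left out, in 1 fit over all libraries for tissues and 1 fit per tissue for sex and housing, with Benjamini-Hochberg adjustment over all genes. Changes on this scale are understated for low genes. The fit was tested on simulated data. Named members are the 12 with the most fragments, up to 6 called members per direction and pair of tissues by smallest p, the smallest p per sex or housing comparison among members with 10 or more fragments, and a fixed set of members, hosts and protein genes. Members, lists and rules were chosen with earlier results of these data known. Same-numbered libraries of different groups did not deviate together (mean correlations of 0.0246, 0.065 and 0.00392 for MOE, VNO and OB). Neither did libraries of the same sex, housing and number from different tissues (mean correlation of 0.00813), so numbers were not taken as pairs. Snord115, Snord113, Snord114, Snord107, Snord13, Snord3a, Snora73a and Snora73b have no entry under these symbols in the tables used here. Figures were drawn with matplotlib 3.10.9.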

Additional observations from a re-analysis of the deposited data

How the results depend on the processing

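Members called between tissues fell from 27, 27 and 32 to 17, 16 and 21 (MOE against VNO, MOE against OB, VNO against OB) when genes needed a mean of 10 estimated fragments, since fewer members were then tested, and ranged over 23 to 31, 25 to 31 and 29 to 38 with single libraries left out. Within MOE the filter of 10 fragments called 2 members between SF and SM and 1 for the interaction, estimated fragments scaled to the library called 1 between SF and SM, and the replicate block, which the numbers do not warrant as pairs, called 2 there, with an adjusted p of 0.0347 for Snora78 from limma. The block changed no other count of called members by over 1.5 times, while the share of all genes with an unadjusted p under 0.05 in OB rose from 5.69% to 9.82% between CF and CM and from 4.13% to 6.96% for the interaction. Leaving out single libraries gave 0 to 2 called members for MOE SF against SM and for the OB interaction, and 0 to 1 for the other 10 comparisons within tissues. For Snora78 between SF and SM these adjusted p-values included 0.000383 without the first CF library, 0.0475 without the second, 0.0161 without the third and 0.0377 without the first CM library. Between MOE and VNO, log2 changes turned under quantile normalization for Scarna13 (-0.41), Snora26 (-0.80), Snora3 (-0.12), Snord15a (-0.27) and Snord17 (-0.32), under upper quartile scaling for Snora26 (-0.24) and Snord17 (-0.19), and on scaled fragments for Snord17 (-0.10). Between MOE and OB they turned under quantile normalization for Snora23 (-0.49), Snora7a (-0.41), Snora81 (-0.23) and Snord15b (-0.25), and under upper quartile scaling for Snord17 (0.0463). Between VNO and OB they turned under upper quartile scaling for Snora81 (0.0885), Snord15b (0.12), Snord17 (0.24) and Snord22 (0.27). With single libraries left out, values crossed 0 between MOE and VNO for Snora26 (-0.0565 to 0.11), Snora78 (-0.26 to 0.21) and Snord22 (-0.16 to 0.11), between MOE and OB for Snord17 (-0.13 to 0.0301) and Snord22 (-0.25 to 0.00298), and between VNO and OB for Snord22 (-0.19 to 0.0169). Of all genes called, 58.9% were higher in MOE than in VNO (45.9% under upper quartile scaling) and 44.0% higher in VNO than in OB (58.3%). Apart from the filter, where fewer members were tested, the cause of these shifts was not tested. Of the values of named members, 2294 kept their direction and side of the threshold, 31 newly passed it, 10 no longer passed it and 43 turned. The values of the 87 members with a mean under 10 fragments rest on few fragments.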

Other observations

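Other small noncoding RNAs were also measured. Rmrp and Rpph1, the RNA subunits of the ribonucleases MRP and P, had high FPKM values. The means of Rmrp were 22888 (MOE), 14797 (VNO) and 27894.5 (OB) and those of Rpph1 were 18188, 12814 and 33448, and both were called lower in VNO than in OB (log2 -0.92 and -1.39). The spliceosomal RNAs Rnu11 and Rnu12 were lowest in VNO, with log2 changes of 1.47 and 1.21 between MOE and VNO. Terc, the telomerase RNA and itself an H/ACA RNA, had 5.35 FPKM in MOE against 2.88 in VNO (log2 0.80). Vaultrc5, the vault RNA, was lower in OB than in both other tissues (log2 1.46 and 1.75). In total 6, 5 and 5 of these 6 genes were called between MOE and VNO, MOE and OB, and VNO and OB, against 82.6%, 85.1% and 85.8% of all genes.

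Snord33, a C/D RNA within Rpl13a that lies 437 bases from Snord32a, was above 0 in 1 of the 36 libraries, the third CM library of MOE, where it stood at 6737 FPKM. That library also had the lowest sum of estimated fragments (3006004) of all. This sum is not its sequencing depth, since the study listed more read pairs for it than for any other MOE library. Its share of aligned reads was the lowest that the study listed.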
